A study of Mus musculus with 24 samples.

Results

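The genes described here are 35 genes that mark macrophages, both the Kupffer cells that reside in the liver and myeloid cells in general. They were taken by gene symbol from a liver expression table of 34945 named genes. The rule itself used no measured value, but the list was drawn up with earlier results of these data known. All 35 symbols were in the table, and 32 of them were among the 10551 genes with a mean of at least 1 TPM that were tested. TPM expresses the transcripts of a gene, corrected for their length, as a share of all transcripts in a library. Spic, Ccr2 and Cx3cr1 stayed below that mean and were left out of the main test.

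The libraries came from mouse liver, 3 for each of 4 genotypes on either of 2 diets (8 groups). The genotype of the controls (WT) was FoxO1lox/lox; PPARαlox/lox, meaning that both genes carry loxP sites, and no Cre transgene is stated for them. The knockouts are labelled FoxO1-/- (LFKO), PPARα-/- (LPKO) and FoxO1-/-; PPARα-/- (LFPKO). They are liver-specific and use Albumin-Cre. This driver acts in hepatocytes and not in macrophages, so the deletions were not aimed at the cells whose marker genes are described here. FoxO1 is a transcription factor of the insulin response, and PPARα is a nuclear receptor that drives fatty acid oxidation. Every group was fasted for 4 h, and tissue was taken after a regular diet (RD) or 3 weeks of a high-fat diet (HFD). Age, sex and strain are not given in the labels, and the numbered replicates are not said to be separate mice. The p-values therefore rest on a spread between libraries that may be technical.

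Kupffer cells line the liver sinusoids, where they take up particles, microbes and worn red blood cells from the blood. They do this through scavenger and complement receptors, recycle the iron of haem, and secrete proteins such as the C1q subunits of complement. Macrophages in general depend on the CSF1 receptor and on the transcription factor PU.1, and present peptides on MHC class II molecules. In RNA from a whole piece of liver, fewer cells of a type and less RNA per cell cannot be told apart.

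The promoters of 3 members are shown because the MHC class II genes varied together across libraries and because Marco varied most among the members (27.2-fold between its highest and lowest library). Each is the 200 bases before the RefSeq start of the gene (GRCm38.p6), written 5′ to 3′ on the strand of the gene. Capitals mark the Y box letters CTGATTGG in the pair of MHC class II promoters, and in Marco the letters GAGGAAG, a form of the core bound by PU.1, the product of Spi1.
H2-Aa (chr17:34287824-34288023, minus strand): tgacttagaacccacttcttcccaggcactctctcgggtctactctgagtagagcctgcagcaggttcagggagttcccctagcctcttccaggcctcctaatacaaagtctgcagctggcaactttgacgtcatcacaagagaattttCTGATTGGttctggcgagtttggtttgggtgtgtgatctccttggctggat
H2-Eb1 (chr17:34305667-34305866, plus strand): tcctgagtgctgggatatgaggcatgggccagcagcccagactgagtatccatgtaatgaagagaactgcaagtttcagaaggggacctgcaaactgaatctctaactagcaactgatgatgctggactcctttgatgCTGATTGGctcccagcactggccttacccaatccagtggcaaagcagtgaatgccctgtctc
Marco (chr1:120505025-120505224, minus strand): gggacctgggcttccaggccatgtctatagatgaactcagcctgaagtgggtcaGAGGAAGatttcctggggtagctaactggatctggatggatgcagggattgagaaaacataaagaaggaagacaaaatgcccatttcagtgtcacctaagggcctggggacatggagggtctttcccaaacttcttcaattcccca
The Y box letters begin 51 bases before the start of H2-Aa and 62 bases before that of H2-Eb1, and GAGGAAG begins 146 bases before the start of Marco. On either strand, CTGATTGG lies in 3.54% and GAGGAAG in 8.84% of 32851 mouse promoter windows of that length. Of the 24 members with a promoter entry, 2 held the first (H2-Aa and H2-Eb1) and 6 the second (C1qc, Cd5l, Fcna, Laptm5, Marco and Mrc1). A match is a description of the letters and does not show that a factor binds there. H2-Ab1, Cd74, Csf1r, Hmox1, Slc40a1, Adgre1, Tyrobp, C1qa, Cd14, Msr1 and Spi1 had no entry.

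TPM keeps no read counts, so the sequencing depth is unknown and precision rests on the spread of 3 libraries. The number of genes at 1 TPM or more ran from 9749 to 10937 per library, and libraries of a group correlated across genes at 0.970 to 0.991. Foxo1 lay at 0.250 to 0.484 TPM in the 12 libraries labelled with its deletion and at 4.06 to 9.94 TPM in the other 12. Ppara lay at 57.5 to 87.3 TPM in the 12 libraries labelled with its deletion and at 37.1 to 68.8 TPM in the others, so its gene total does not check those labels, and directions for LPKO and LFPKO refer to the libraries so labelled. Changes below are log2 fold changes (log2FC) ± SE of TPM + 1, which understates the change of weakly expressed genes. A gene was called when its limma p, adjusted over all 10551 tested genes, was under 0.05. All comparisons with WT on 1 diet share the same 3 control libraries.

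The defining Kupffer cell genes had non-zero values in every library, far under the hepatocyte gene Alb (serum albumin), which had 45445 TPM ± 1412 (SD, n = 3) in RD WT livers. Clec4f, a lectin receptor made by Kupffer cells, had a median of 30.3 TPM over the 24 libraries and ranged from 16.5 to 48.4. Cd5l, a secreted macrophage protein, had a median of 17.2 TPM, and Fcna, the lectin ficolin A, one of 14.8 TPM. Vsig4, a complement receptor, stood at 9.62 TPM, Folr2, a folate receptor, at 4.06, and Timd4, a receptor for dying cells, at 1.70. The haemoglobin scavenger receptor Cd163 had a median of 1.70 TPM and the scavenger receptor Marco one of 1.68. In their lowest libraries Timd4, Cd163 and Marco stood at 0.657, 0.695 and 0.333 TPM, where values without read counts are uncertain. The most abundant members by median were Slc40a1, which encodes the iron exporter ferroportin, at 51.1 TPM, Nr1h3, which encodes the oxysterol receptor LXRα, at 43.9, and Cd74, the MHC class II invariant chain, at 42.1. Hepatocytes express Slc40a1, Hmox1 and Nr1h3 too, sinusoidal endothelium expresses Mrc1, and B and dendritic cells express the MHC class II genes, so these members are not specific to macrophages.

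Members at the low end were the monocyte chemokine receptors and the Kupffer cell transcription factor Spic. Ccr2, which guides monocytes out of the marrow, lay between 0.0703 and 0.688 TPM over the 24 libraries, and Cx3cr1, the fractalkine receptor, between 0.0303 and 0.326 TPM. Spic, the factor of iron-recycling macrophages, lay between 0.209 and 0.959 TPM. Its values were 0.708, 0.893 and 0.959 TPM in RD WT and 0.209, 0.432 and 0.559 TPM in RD LFKO livers, without overlap. RD LFPKO livers, at 0.450, 0.452 and 0.561 TPM, also lay entirely under RD WT, while RD LPKO livers, at 0.426, 0.769 and 0.322 TPM, overlapped them. Of all tested genes 7.43% lay entirely under RD WT in RD LFKO and 12.4% in RD LFPKO livers. With no filter Spic was not called in either (limma adjusted p = 0.219 and 0.285). Spi1, which encodes PU.1, had a median of 1.98 TPM.

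Single libraries stood apart for most members at once, and they bear on every comparison below. RD WT replicate 2 was the highest of all 24 libraries for 24 of the 32 tested members. HFD LPKO replicate 1 was the lowest for 13 and HFD WT replicate 2 for 12. HFD LPKO replicate 2 was among the 3 highest libraries for 19 members, and HFD WT replicate 1 lay above the mean of its group for 32 of 32. The pooled standard deviation within groups, on the log2 scale, had a median of 0.418 over the members and 0.190 over all genes tested. It was highest for Marco (0.606), H2-Ab1 (0.602) and Cd74 (0.595) and lowest for Nr1h3 (0.127).

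**Figure D1:**
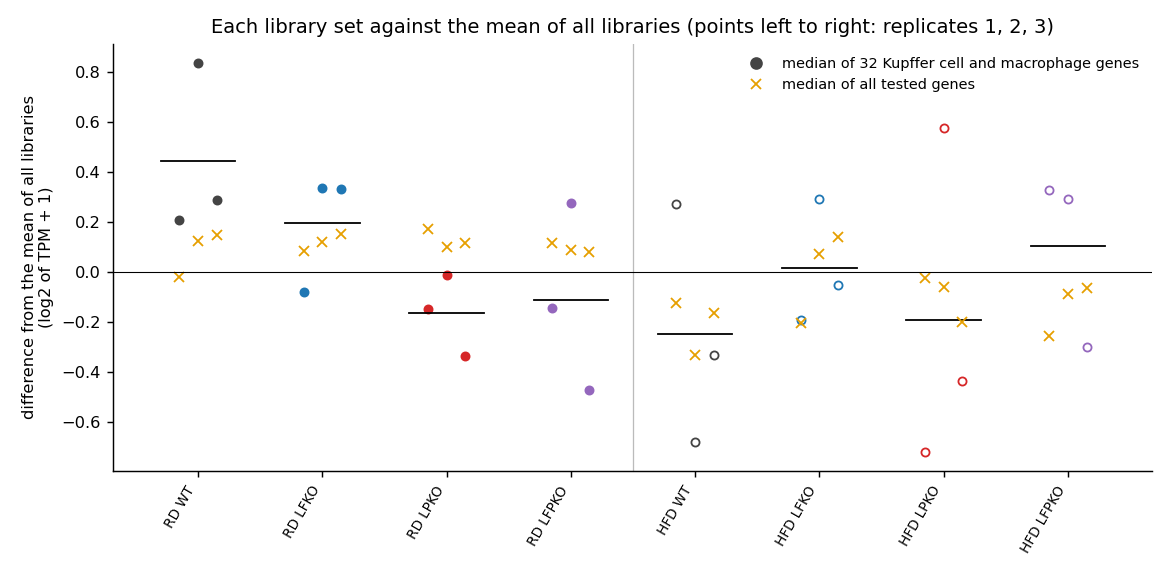
Median deviation of the 32 tested members (and, for comparison, of all 10551 tested genes) from their mean over 24 libraries, in log2(TPM + 1), for each library by group. RD WT replicate 2 (0.83) and HFD LPKO replicate 2 (0.58) lie at the top and HFD LPKO replicate 1 (-0.72) and HFD WT replicate 2 (-0.68) at the bottom, while the medians of all genes span -0.33 to 0.17.

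On the regular diet, the scavenger receptor Marco was the member called lower in LFKO livers. Its mean was also lower than in WT in LPKO and LFPKO livers, without a call. Marco (chromosome 1, 120474538 to 120505024, GRCm38) stood at 2.60, 8.27 and 9.07 TPM in RD WT and at 0.773, 0.757 and 1.06 TPM in RD LFKO livers. All LFKO libraries lay under all WT libraries, and RD WT replicate 1 was far under the other WT libraries. The change was -1.90 ± 0.45 (limma adjusted p = 0.0352). It was the 1 member called, where 1.67% of all tested genes were called. The call was lost without RD WT replicate 2 (limma adjusted p = 0.136) or 3 (0.162), and without RD LFKO replicate 1 (0.101), 2 (0.126) or 3 (0.0919), and with a pseudocount of 0.1 (0.0623) or no filter (0.0767).

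Of the 32 members 27 had a negative log2FC in RD LFKO livers, as did 43.8% of all genes, and the medians were -0.27 and 0.03. The members' median was -0.07 without RD WT replicate 2 and -0.09 without RD LFKO replicate 1. For 8 members every LFKO library lay under every WT library, against 7.43% of all genes. Besides Marco these were Vsig4, Cd163, Timd4, Fcna, Adgre1 (F4/80), Lyz2 (lysozyme) and Laptm5 (a lysosomal membrane protein). Fcna stood at 25.2, 27.1 and 19.1 TPM in WT and 13.0, 14.9 and 14.7 TPM in LFKO livers, which did not overlap (-0.69 ± 0.29, limma adjusted p = 0.263). Clec4f did not separate these groups, at 31.5, 48.4 and 33.9 TPM in WT and 30.7, 39.6 and 39.6 TPM in LFKO livers (-0.03 ± 0.29, limma adjusted p = 0.974).

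Slc40a1, Mpeg1, Hmox1, Aif1 and Nr1h3 had values in the other direction in RD LFKO livers, and Slc40a1 and Mpeg1 moved most. Slc40a1 (chromosome 1, 45908068 to 45926523) stood at 41.6, 65.6 and 77.7 TPM in WT and 91.3, 97.9 and 91.2 TPM in LFKO livers. The groups did not overlap, and the change did not pass the test (0.64 ± 0.22, limma adjusted p = 0.166). Mpeg1 (chromosome 19, 12460779 to 12465283), which encodes the pore-forming protein perforin-2 of macrophages, stood at 8.22, 21.6 and 12.1 TPM in WT and 19.4, 22.6 and 26.4 TPM in LFKO livers. They overlapped through RD WT replicate 2 (0.76 ± 0.26, limma adjusted p = 0.154), and without that library the value was 1.11 with an adjusted p of 0.0239.

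In RD LPKO livers, labelled as lacking PPARα, 29 of 32 members had a negative log2FC and Cd163 passed the test. Cd163 (chromosome 6, 124304656 to 124330527) stood at 3.51, 4.17 and 2.92 TPM in RD WT and 0.988, 1.91 and 0.951 TPM in RD LPKO livers. Every LPKO library lay under every WT library (-1.01 ± 0.29, limma adjusted p = 0.0444). It was the 1 member called, where 5.85% of all genes were called. The call was lost without RD WT replicate 1 (limma adjusted p = 0.102), 2 (0.152) or 3 (0.0646) and without RD LPKO replicate 1 (0.164) or 3 (0.176), with a pseudocount of 0.1 (0.0617), with no filter (0.0996) and without Mup and mitochondrial transcripts (0.0504).

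The median log2FC of the members in RD LPKO livers was -0.65, beside 0.04 for all genes, of which 41.7% were negative. It was -0.43 without RD WT replicate 2. For 20 members all LPKO libraries lay under all WT libraries, against 10.1% of all genes. An unadjusted limma p under 0.05 with a lower value was found for 16 members and for 6.7% of all genes. All 11 Kupffer cell receptors and secreted proteins had negative values, from -1.12 to -0.41, and 9 of them did not overlap. Marco had the lowest value, at 2.50, 2.97 and 1.38 TPM in RD LPKO livers, and overlapped WT through RD WT replicate 1 (limma adjusted p = 0.166). Clec4f stood at 21.4, 25.4 and 19.3 TPM in RD LPKO livers, all under the WT range (-0.74 ± 0.29, limma adjusted p = 0.146). Vsig4 stood at 13.4, 22.1 and 14.0 TPM in WT and 6.41, 9.74 and 6.44 TPM in LPKO (-1.02 ± 0.39, limma adjusted p = 0.137).

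Of the 10 general macrophage and myeloid genes, 9 had negative values in RD LPKO livers and 7 did not overlap. Cd68, a lysosomal glycoprotein of macrophages, stood at 6.13, 8.95 and 6.87 TPM in WT and 3.27, 3.67 and 3.18 TPM in LPKO (-0.91 ± 0.29, limma adjusted p = 0.0718). The groups were well apart, and Cd68 passed after scaling (limma adjusted p = 0.0405), without Mup and mitochondrial transcripts (0.0445) and with the compared groups alone (0.0150), with a range of 0.0150 to 0.230 over its alternatives. Csf1r, the growth factor receptor that macrophages depend on, stood at 6.53, 11.5 and 8.46 TPM in WT and 4.11, 5.82 and 3.94 TPM in LPKO (-0.79 ± 0.35, limma adjusted p = 0.214). The signalling adaptor Tyrobp, the Fc receptor chain Fcer1g, Adgre1, Lyz2 and Laptm5 also did not overlap, while Ctss (cathepsin S) and Aif1 (IBA1, a cytoskeletal protein) did. Mpeg1 was the member of this group with a positive value, at 16.3, 21.8 and 14.9 TPM in LPKO livers, which overlapped WT (0.40 ± 0.26, limma adjusted p = 0.435).

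The C1q chains, which together form the recognition unit of the classical complement pathway, had values of -0.82 to -0.71 in RD LPKO livers. C1qc stood at 23.4, 35.5 and 24 TPM in WT and 14.7, 16.8 and 13.5 TPM in LPKO livers, without overlap (-0.82 ± 0.33, limma adjusted p = 0.173). C1qa and C1qb did not overlap either. The 4 MHC class II genes had values of -0.68 to -0.60, and only Cd74 among them did not overlap. Hmox1 (chromosome 8, 75093621 to 75100589), which encodes the haem-degrading enzyme haem oxygenase 1, stood apart from these members. It was at 12.5, 13.3 and 12.6 TPM in RD WT and 43.3, 18.9 and 24.6 TPM in RD LPKO livers. All LPKO libraries lay above all WT libraries, with replicate 1 far above the rest, and the change missed the threshold (1.03 ± 0.35, limma adjusted p = 0.0911).

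RD LFPKO livers, labelled as lacking both factors, gave Cd163 as the 1 member called, where 7.45% of all genes were called. Cd163 stood at 0.918, 1.97 and 1.14 TPM in RD LFPKO livers, all under the WT range (-0.97 ± 0.29, limma adjusted p = 0.0457). The call was lost without RD WT replicate 1 (limma adjusted p = 0.0914), 2 (0.151) or 3 (0.0701) and without RD LFPKO replicate 1 (0.168) or 3 (0.148). It was also lost with a pseudocount of 0.1 (0.0636), with no filter (0.102) and without Mup and mitochondrial transcripts (0.0518). Marco stood at 2.04, 2.56 and 0.936 TPM, under all WT libraries (-1.33 ± 0.45, limma adjusted p = 0.077), and passed without RD WT replicate 1 (0.0213).

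The median over the members in RD LFPKO livers was -0.53, beside 0.01 for all genes, with 29 of 32 members and 48.1% of all genes negative. It was -0.33 without RD WT replicate 2. For 13 members all LFPKO libraries lay under all WT libraries, against 12.4% of all genes. Clec4f stood at 19.6, 31.0 and 20.4 TPM, just under the lowest WT library (-0.66 ± 0.29, limma adjusted p = 0.179). Msr1, scavenger receptor A, stood at 2.41, 3.25 and 3.11 TPM in WT and 2.01, 2.02 and 0.828 TPM in LFPKO livers, without overlap (-0.61 ± 0.23, limma adjusted p = 0.128). Hmox1 stood at 44.7, 19.9 and 13.1 TPM, with replicate 1 far above the others and replicate 3 within the WT range (0.78 ± 0.35, limma adjusted p = 0.193).

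**Figure D2:**
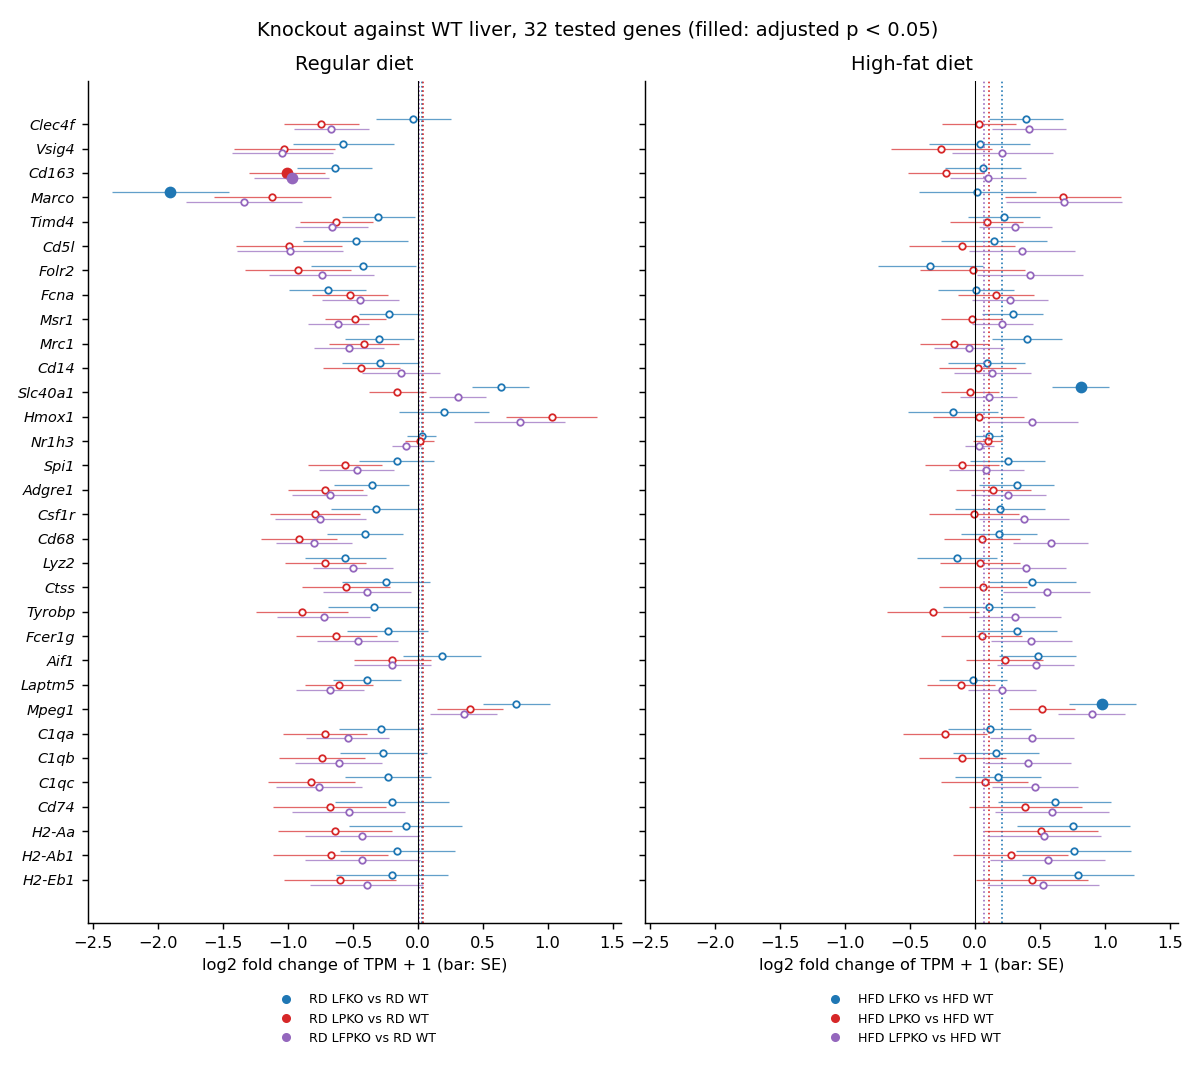
Log2 fold change of each tested member in LFKO, LPKO and LFPKO against WT livers, with SE bars, on the regular diet and the high-fat diet; filled points passed an adjusted p of 0.05 and dotted lines mark the median of all tested genes. On the regular diet 27, 29 and 29 of 32 members lie under 0, and on the high-fat diet 28, 19 and 31 lie above it, where scaling changes the counts above 0 to 15, 10 and 30.

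Adding the second deletion on the regular diet called none of the 32 members with limma. Against RD LFKO, where 5.08% of all genes were called, 27 members (54.2% of all genes) had negative values in RD LFPKO livers with a median of -0.33 (-0.02 for all genes), and 1 was lower at an unadjusted p under 0.05, as were 9.56% of all genes. That was Clec4f (-0.63 ± 0.29, limma adjusted p = 0.264). The median was -0.14 without RD LFPKO replicate 3. Against RD LPKO, where 0.123% of all genes were called, the median was 0.08 (-0.03 for all genes), 23 members (40.6% of all genes) had positive values and 1 was higher at an unadjusted p under 0.05 (1.89% of all genes). That was Slc40a1, at 55.8, 59.1 and 46.3 TPM in LPKO and 78.3, 75.2 and 69.1 TPM in LFPKO (0.46 ± 0.22, limma adjusted p = 0.95). These libraries did not overlap, as for 5.11% of all genes. This median ranged from -0.10 (without RD LFPKO replicate 2) to 0.26 (without RD LFPKO replicate 3). The other 31 tested members overlapped between RD LFPKO and RD LPKO livers.

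**Figure D3:**
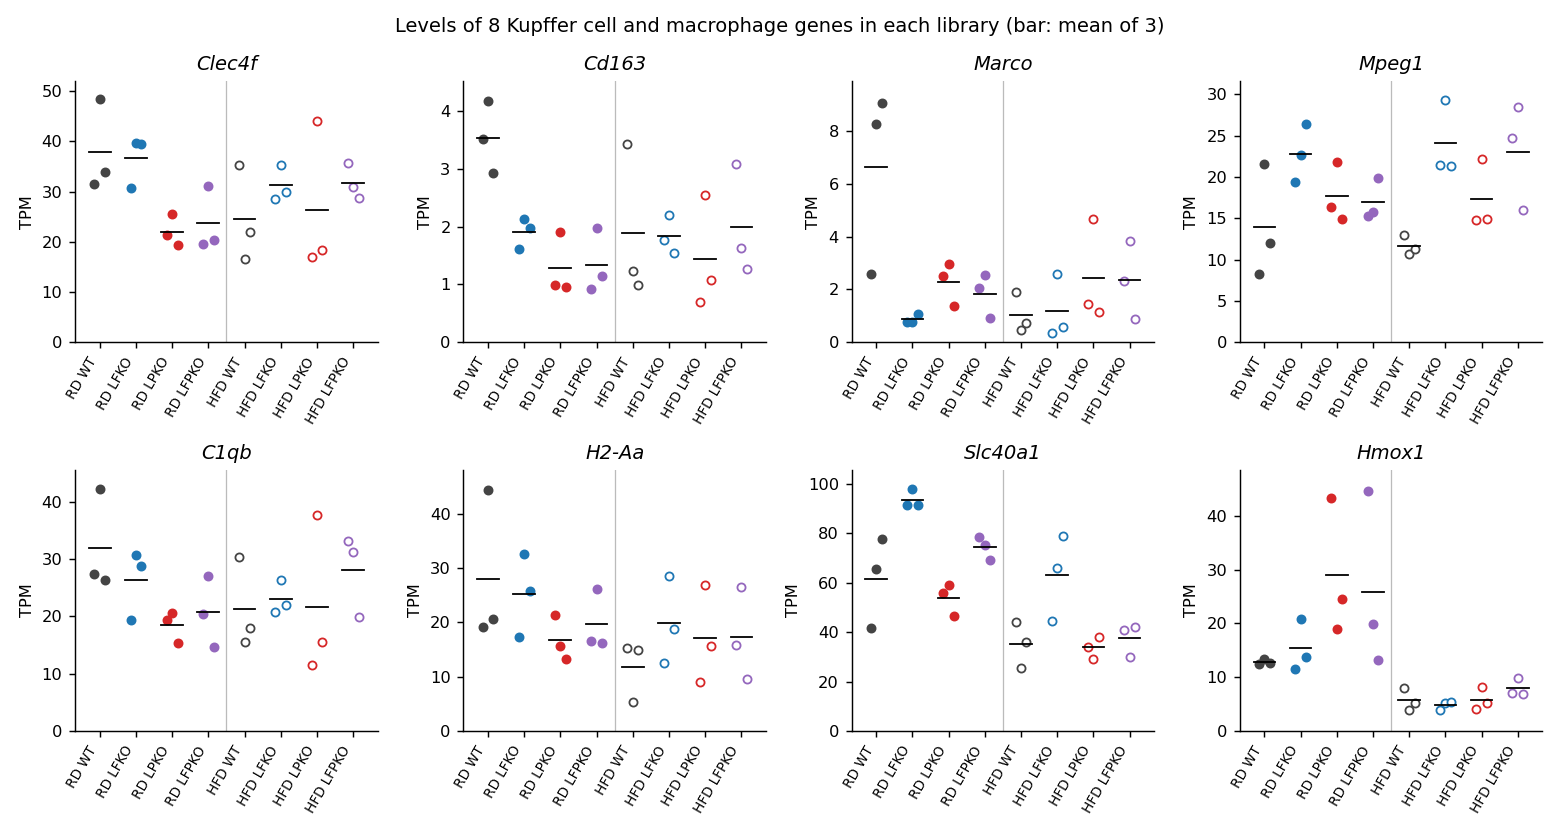
TPM of 8 members in each of the 24 libraries, by group, with the group means as bars. The mean of Marco is highest in RD WT livers, Hmox1 is low in all HFD groups, and the mean of Mpeg1 is lowest in the WT groups, while Clec4f, C1qb and H2-Aa spread widely within groups such as HFD LPKO.

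On the high-fat diet the iron exporter gene Slc40a1 and Mpeg1 rose in LFKO livers. The 3 WT libraries held 44.2, 25.6 and 36.1 TPM of Slc40a1, and the LFKO libraries 44.5, 65.7 and 78.9 TPM. The groups touched without overlap at HFD WT replicate 1 and HFD LFKO replicate 1 (0.81 ± 0.22, limma adjusted p = 0.0226). Mpeg1 stood at 13.0, 10.6 and 11.2 TPM in WT and 21.5, 29.3 and 21.3 TPM in LFKO livers, well apart (0.98 ± 0.26, limma adjusted p = 0.0195). These were 2 of 32 members, where 13.5% of all genes were called.

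Both calls ended after scaling by median-of-ratios factors, with limma adjusted p values of 0.0817 for Slc40a1 and 0.10 for Mpeg1. They also ended without Mup and mitochondrial transcripts (0.185 and 0.150), and that of Slc40a1 ended with the compared groups alone (0.151). Mup genes, which encode major urinary proteins of hepatocytes, took 25.1% ± 5.33 (SD, n = 3) of the TPM in WT livers on this diet and 11.7% ± 5.65 (SD, n = 3) in LFKO, and their part in the result was not tested. Scaling moved the median of all genes in this comparison by -0.22. Without HFD WT replicate 2 the limma adjusted p was 0.169 for Slc40a1 and 0.104 for Mpeg1. Without HFD LFKO replicate 2 it was 0.0959 and 0.107, and without HFD LFKO replicate 3 it was 0.141 and 0.0604.

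The members as a list stood at the level of all genes in HFD LFKO livers, with medians of 0.19 and 0.21 and with 28 of 32 members and 83.4% of all genes positive. After scaling the members' median was -0.01, with 15 of 32 positive. Without scaling it ranged from 0.01 (without HFD WT replicate 2) to 0.49 (without HFD WT replicate 1), and was 0.08 without HFD LFKO replicate 2 and 0.30 without HFD LFKO replicate 1. Marco gave 1.89, 0.469 and 0.713 TPM in WT on this diet and 0.333, 2.60 and 0.578 TPM in LFKO, fully overlapping (0.02 ± 0.45, limma adjusted p = 0.982). H2-Eb1 had the largest value of the MHC class II genes, at 10.6, 4.82 and 9.77 TPM in WT and 9.49, 24 and 13.4 TPM in LFKO livers, which overlapped (0.79 ± 0.43, limma adjusted p = 0.21).

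In HFD LPKO livers limma called 0 of 32 members, where 4.73% of all genes were called, and 0 members had an unadjusted p under 0.05, where 16.4% of all genes were higher and 3.44% lower at that threshold. Of the members 19 were positive, beside 70.5% of all genes. The median was 0.04 beside 0.11 for all genes, turned to -0.07 after scaling, and ranged from -0.33 (without HFD LPKO replicate 2) to 0.31 (without HFD WT replicate 1). HFD LPKO replicate 2 stood away from replicates 1 and 3. Clec4f was at 16.9, 44.0 and 18.3 TPM in them, beside 35.2, 16.5 and 22 TPM in HFD WT livers, and the groups overlapped, with HFD LPKO replicate 2 above every WT library. Mpeg1, at 14.8, 22.2 and 14.9 TPM, was the 1 member whose libraries all lay above WT (0.52 ± 0.26, limma adjusted p = 0.272), against 16.3% of all genes.

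HFD LFPKO livers also gave 0 called members with limma, where 3.09% of all genes were called, and 1 member higher at an unadjusted p under 0.05, beside 9.77% of all genes. The values were positive for 31 of 32 members, and for 65% of all genes, with medians of 0.40 and 0.07. After scaling 30 were positive, with a median of 0.33. The median was 0.12 without HFD WT replicate 2 and 0.68 without HFD WT replicate 1. Mpeg1 stood at 24.7, 28.5 and 16 TPM, all above the WT range, and missed the threshold (0.90 ± 0.26, limma adjusted p = 0.0624). Cd68 stood at 6.35, 2.47 and 3.97 TPM in HFD WT and 6.91, 7.01 and 5.74 TPM in HFD LFPKO livers, which overlapped (0.58 ± 0.29, limma adjusted p = 0.385).

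Between the double and single knockouts on the high-fat diet, Slc40a1 was the member that changed. It stood at 40.9, 30.0 and 42.0 TPM in HFD LFPKO livers, under every HFD LFKO library (-0.71 ± 0.22, limma adjusted p = 0.045), where 10.6% of all genes were called. The call ended after scaling (limma adjusted p = 0.0633), with no filter (0.0941), without Mup and mitochondrial transcripts (0.178) and with the compared groups alone (0.189). It also ended without HFD LFKO replicate 2 (0.152) or 3 (0.243) and without HFD LFPKO replicate 1 (0.0776) or 2 (0.158), and with the replicate number as a block (0.0508). Folr2 and Hmox1 were higher in all LFPKO than in all LFKO libraries, as were 3.87% of all genes, without passing the test. Against HFD LPKO limma called 0 of 32 members, where 0.351% of all genes were called, with 0 at an unadjusted p under 0.05 (2.54% of all genes were higher and 7.93% lower there). The median was 0.32 beside -0.04 for all genes, and ranged from 0.07 without HFD LPKO replicate 1 to 0.64 without HFD LPKO replicate 2.

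The high-fat diet went with lower values of all 32 members in WT livers, and 7 passed the test, where 30.8% of all genes were called. These were the scavenger receptors Marco and Msr1, Fcna, Slc40a1, Hmox1, Lyz2 and the MHC class II chain gene H2-Aa. The median was -0.73 over the members and -0.29 over all genes, of which 89.2% were negative. The share of TPM taken by Mup genes was 9.44% ± 1.99 in RD WT and 25.1% ± 5.33 in HFD WT livers (SD, n = 3), and its part was not tested. Scaling moved the median of all genes by 0.30. After it the members' median was -0.44, 30 of 32 were negative, and Marco was the 1 member still called.

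Marco fell from 2.60, 8.27 and 9.07 TPM in RD WT to 1.89, 0.469 and 0.713 TPM in HFD WT livers. All HFD libraries lay under all RD libraries (-1.84 ± 0.45, limma adjusted p = 0.00706). The call held in the 12 alternatives that tested Marco, with 6 of 6 single libraries left out and a limma adjusted p of at most 0.0489. Lyz2 (chromosome 10, 117277331 to 117282321) fell from 32.8, 46.6 and 29.7 TPM to 23.6, 10.5 and 14.5 TPM, without overlap (-1.16 ± 0.31, limma adjusted p = 0.0115). It shares similar sequence with Lyz1, which had at most 0.191 TPM in any library.

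H2-Aa (chromosome 17, 34282744 to 34287823), whose Y box is shown above, fell from 19.2, 44.3 and 20.6 TPM to 15.3, 5.28 and 14.8 TPM (-1.20 ± 0.44, limma adjusted p = 0.0432). All 4 MHC class II genes were lower in every HFD WT than in every RD WT library, as were 9 members in all and 46.4% of all genes. H2-Eb1, with the same letters, stood at 12.3, 30.4 and 14.8 TPM and then 10.6, 4.82 and 9.77 TPM (-1.06 ± 0.43, limma adjusted p = 0.0653). MHC class II genes belong to a family of similar genes, and how reads were divided among them is uncertain.

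Hmox1 fell from 12.5, 13.3 and 12.6 TPM in RD WT to 8.05, 3.85 and 5.27 TPM in HFD WT livers, without overlap (-1.09 ± 0.35, limma adjusted p = 0.0267). Slc40a1 fell with a small overlap, from 41.6, 65.6 and 77.7 TPM to 44.2, 25.6 and 36.1 TPM (-0.77 ± 0.22, limma adjusted p = 0.0159). Msr1 fell from 2.41, 3.25 and 3.11 TPM to 1.95, 0.837 and 1.60 TPM (-0.69 ± 0.23, limma adjusted p = 0.0334). Fcna fell from 25.2, 27.1 and 19.1 TPM to 19.5, 9.13 and 12.3 TPM, overlapping at HFD WT replicate 1 (-0.81 ± 0.29, limma adjusted p = 0.0446).

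These 6 calls other than Marco depended on scaling and on single libraries. After scaling the limma adjusted p was 0.381 for Fcna, 0.212 for Msr1, 0.156 for Slc40a1, 0.158 for Hmox1, 0.0988 for Lyz2 and 0.214 for H2-Aa. The number of members called was 1 without RD WT replicate 2, 2 without RD WT replicate 3, 21 without HFD WT replicate 1 and 1 without HFD WT replicate 2. Clec4f, at 35.2, 16.5 and 22 TPM in HFD WT livers, overlapped RD WT through HFD WT replicate 1 (-0.65 ± 0.29, limma adjusted p = 0.0862). The C1q chains overlapped likewise (-0.72 to -0.50).

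**Figure D4:**
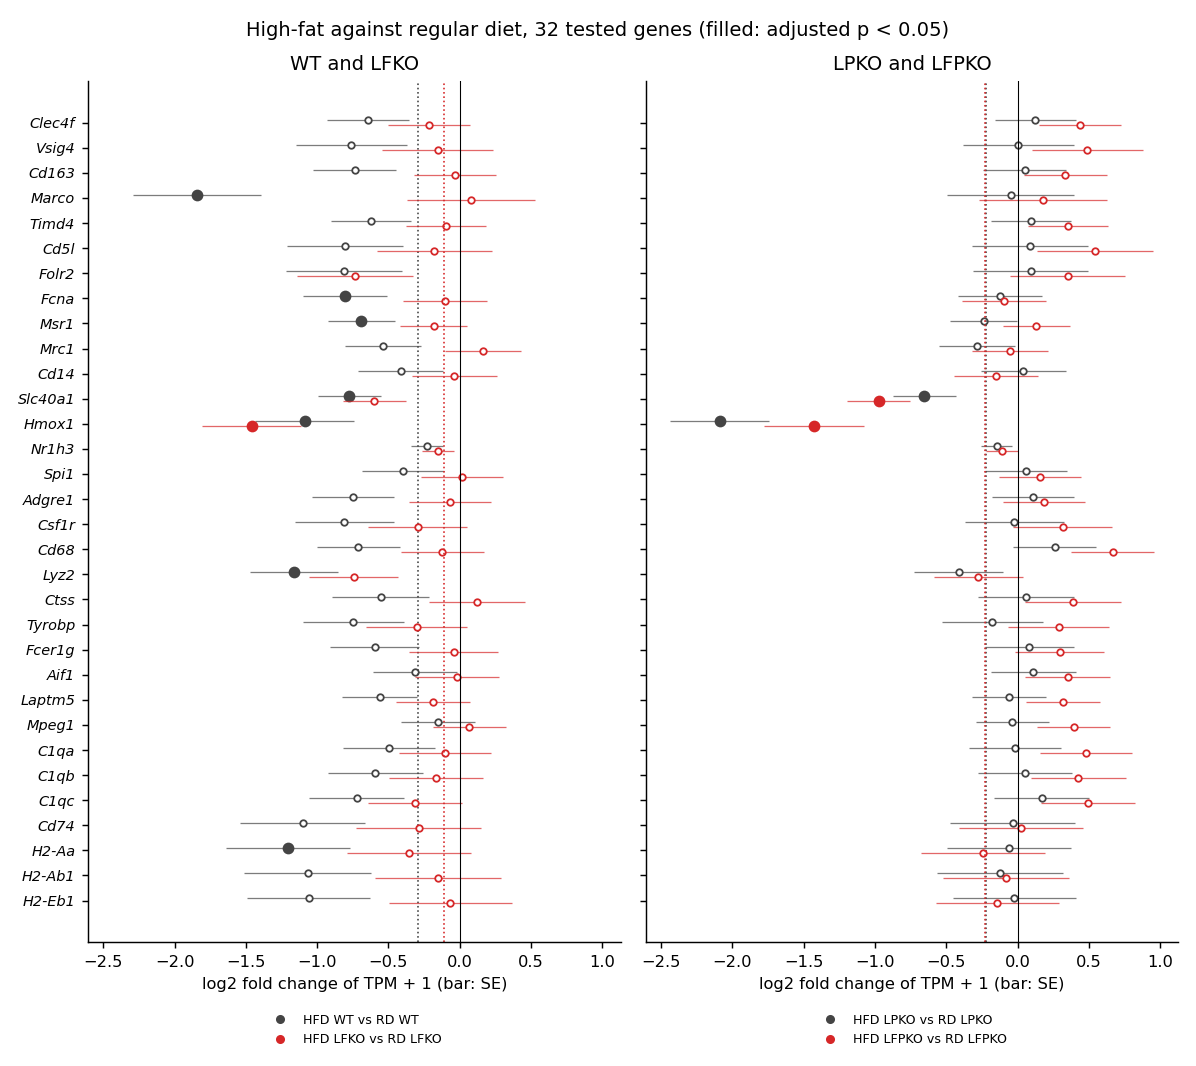
Log2 fold change of each tested member on the high-fat against the regular diet within each genotype, with SE bars; filled points passed an adjusted p of 0.05 and dotted lines mark the median of all tested genes. All 32 members lie under 0 in WT livers (30 after scaling), while in LPKO and LFPKO livers 15 and 22 lie above 0 (27 and 29 after scaling) and Hmox1 and Slc40a1 stand apart on the left.

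In the knockouts, the haem and iron genes Hmox1 and Slc40a1 were the only members called lower with the high-fat diet. Both were also called lower in WT livers. In LFKO livers Hmox1 was the 1 member called, where 9.45% of all genes were called, and fell from 11.5, 20.8 and 13.7 TPM to 3.90, 5.15 and 5.45 TPM (-1.46 ± 0.35, limma adjusted p = 0.0136). The groups were far apart, though the call was lost without RD LFKO replicate 2 (limma adjusted p = 0.0785) or HFD LFKO replicate 1 (0.0705). In LPKO livers Hmox1 fell from 43.3, 18.9 and 24.6 TPM to 4.09, 8.27 and 5.19 TPM (-2.09 ± 0.35, limma adjusted p = 0.00103), a call kept in all 13 alternatives. In LFPKO livers it fell from 44.7, 19.9 and 13.1 TPM to 7.10, 9.88 and 6.86 TPM, again without overlap (-1.43 ± 0.35, limma adjusted p = 0.00597). That call was lost with the compared groups alone (0.0523).

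Slc40a1 fell with the diet in every genotype and, besides WT livers (-0.77), was called in the LPKO and LFPKO livers. In LFPKO livers it went from 78.3, 75.2 and 69.1 TPM to 40.9, 30.0 and 42.0 TPM, well apart (-0.97 ± 0.22, limma adjusted p = 0.00363), and of the 13 alternatives 1 ended the call, the removal of Mup and mitochondrial transcripts (0.0515). In LPKO livers it went from 55.8, 59.1 and 46.3 TPM to 34.0, 29.2 and 38.2 TPM (-0.66 ± 0.22, limma adjusted p = 0.045). This call was lost in all 6 fits without 1 library (limma adjusted p = 0.0625 to 0.134), after scaling (0.202), with no filter (0.0954) and without Mup and mitochondrial transcripts (0.234). With the replicate number as a block it was also lost (0.0508). In LFKO livers Slc40a1 went from 91.3, 97.9 and 91.2 TPM to 44.5, 65.7 and 78.9 TPM, without overlap and without passing the test (-0.60 ± 0.22, limma adjusted p = 0.0932).

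The medians over the members in the knockouts lay nearer to 0 than in WT livers or above it. The difference between these medians was not tested, and the interaction terms below test each member by itself. In LPKO livers 2 members were called, where 18.1% of all genes were called, and the median was -0.02 beside -0.22 for all genes. After scaling it was 0.21, with 27 of 32 members positive, and without scaling it ranged from -0.43 (without HFD LPKO replicate 2) to 0.29 (without HFD LPKO replicate 1). In LFPKO livers 2 members were called, where 26.3% of all genes were called, with medians of 0.29 and -0.23. After scaling the members' median was 0.52 with 29 positive. It was 0.07 without RD LFPKO replicate 3. Cd68 was at 4.23, 3.93 and 3.14 TPM in RD LFPKO and 6.91, 7.01 and 5.74 TPM in HFD LFPKO livers, without overlap (0.67 ± 0.29, limma adjusted p = 0.0947). After scaling Cd68 passed the test as higher (0.90, limma adjusted p = 0.0384), and it was also called without Mup and mitochondrial transcripts.

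In LFKO livers the median was -0.15 beside -0.11 for all genes, and close to 0 after scaling (-0.02). It ranged from -0.29 without RD LFKO replicate 1 to -0.05 without HFD LFKO replicate 1. Lyz2 stood at 23.8, 22.1 and 26.3 TPM in RD LFKO and 12.2, 19.9 and 11.0 TPM in HFD LFKO livers, without overlap (-0.74 ± 0.31, limma adjusted p = 0.14). Folr2 stood at 4.10, 4.13 and 6.29 TPM and then 2.91, 2.71 and 1.85 TPM, also without overlap (-0.74 ± 0.41, limma adjusted p = 0.272). Marco overlapped between the diets, at 0.773, 0.757 and 1.06 TPM in RD LFKO and 0.333, 2.60 and 0.578 TPM in HFD LFKO livers.

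The interaction terms, which ask whether a knockout's difference from WT differed between the diets, called 0 of 32 members with limma in each of the 3 genotypes. Over all genes 0.00948% were called for LFKO, 0.171% for LPKO and 0.0284% for LFPKO. At an unadjusted p under 0.05, 1, 3 and 14 members had positive terms, against 11%, 5.54% and 4.74% of all genes. Positive terms, meaning that the members stood higher relative to WT on the high-fat diet than on the regular diet, were found for 31, 31 and 30 members, and for 28, 31 and 30 after scaling. Over all genes the shares were 77.1%, 62% and 59.4%. The medians were 0.51, 0.70 and 0.95, beside 0.18, 0.07 and 0.05 for all genes.

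The term of Marco was the largest in each genotype, at 1.92 ± 0.63 for LFKO, 1.79 ± 0.63 for LPKO and 2.02 ± 0.63 for LFPKO (limma adjusted p = 0.279, 0.371 and 0.362). For LFPKO those of Cd68 (1.38 ± 0.41, limma adjusted p = 0.321), Cd5l (1.34 ± 0.57, 0.575) and Vsig4 (1.25 ± 0.55, 0.593) came next. The 3 terms share the 6 WT libraries, of which RD WT replicate 2 and HFD WT replicate 2 stand at opposite ends for most members. The medians without HFD WT replicate 2 were 0.31 for LFKO and 0.45 for LPKO, and that for LPKO was 0.27 without HFD LPKO replicate 2. Without RD WT replicate 2 the median for LFKO was 0.33. Hmox1 had negative terms throughout, the lowest in LPKO (-1.0 ± 0.49, limma adjusted p = 0.625).

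Ratios within a library do not depend on its scaling and show how far members kept their proportions. C1qc relative to C1qb, neighbours on chromosome 4, ranged from 0.734 to 0.931 over the 24 libraries, although C1qb itself ranged from 11.6 to 42.3 TPM. C1qa relative to C1qb ranged from 0.919 to 1.20. H2-Ab1 relative to H2-Aa ranged from 0.661 to 1.16, while H2-Aa ranged from 5.28 to 44.3 TPM. The C1q chains thus kept nearly the same proportions in high and low libraries, and the MHC class II chains did so somewhat less.

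Other pairs shifted between groups. Mpeg1 relative to Csf1r had a mean of 1.52 ± 0.318 in RD WT, 3.39 ± 0.194 in RD LFKO and 3.83 ± 0.116 in RD LPKO livers (SD, n = 3). In RD LFPKO livers it was 3.95 ± 2.18, and all RD knockout libraries lay above all RD WT libraries. On the high-fat diet it was 2.73 ± 0.908 in WT, 4.53 ± 0.378 in LFKO, 4.23 ± 1.85 in LPKO and 3.67 ± 0.290 in LFPKO livers. Hmox1 relative to Clec4f was 1.35 ± 0.646 in RD LPKO and 1.19 ± 0.947 in RD LFPKO livers, beside 0.349 ± 0.0647 in RD WT. In the 4 HFD groups its means lay between 0.155 and 0.253. These ratios were chosen after the values were seen and were not tested.

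**Figure D5:**
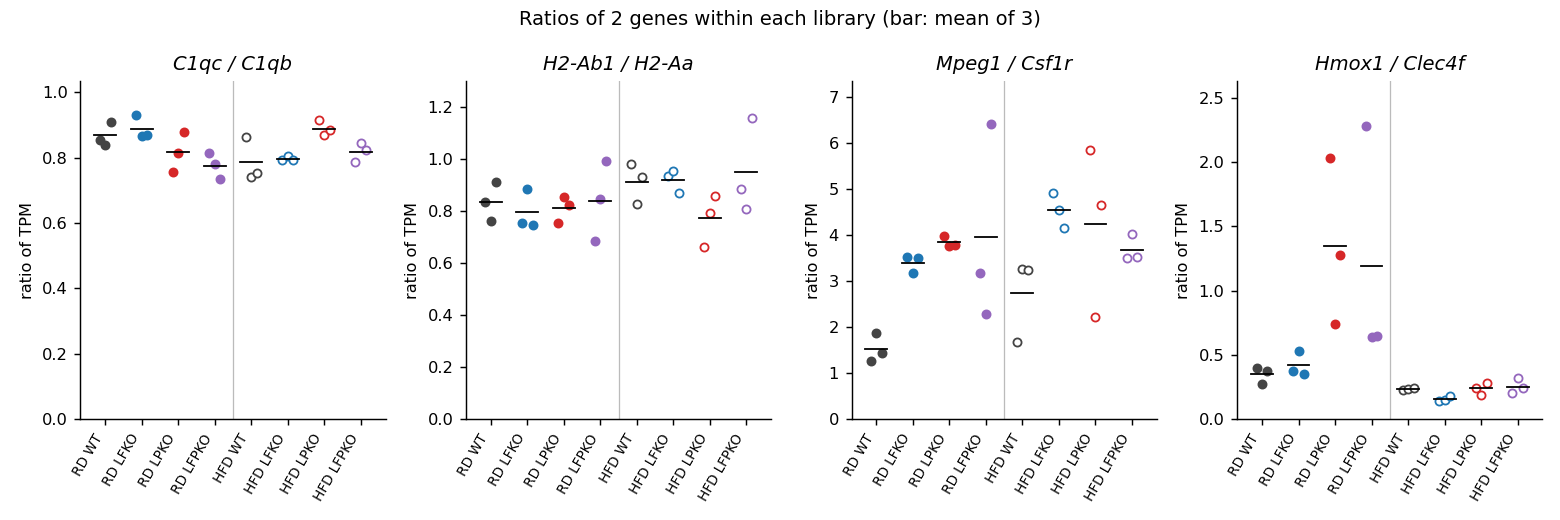
Ratios of TPM between members of the same library (C1qc to C1qb, H2-Ab1 to H2-Aa, Mpeg1 to Csf1r and Hmox1 to Clec4f) for 24 libraries by group, with bars at the mean of 3. C1qc to C1qb stays between 0.734 and 0.931, the mean of Mpeg1 to Csf1r is lowest in RD WT livers, and Hmox1 to Clec4f is highest in RD LPKO and RD LFPKO livers.

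Other genes of the same biology gave a mixed picture. Lists of lipid-associated macrophage, cytokine, niche and antigen presentation genes, with 9, 10, 11 and 11 tested genes, are not described in full. Among them, Fabp5, Cxcl10 and Psmb8 were called higher in RD LPKO (2.09, 1.59 and 0.75) and RD LFPKO livers (2.04, 1.68 and 0.92). Of all genes 3.52% and 4% were called higher in these comparisons, and these single genes do not describe their lists. Il1b was called lower in RD LFPKO livers (-1.12). Cd9 fell with the diet in WT (-1.47), LFKO (-1.19), LPKO (-1.41) and LFPKO livers (-1.30). Of 16 further Kupffer cell genes, 11 were tested, and 2 were called lower in each of RD LFKO, RD LPKO and RD LFPKO against WT livers, where 0.597%, 2.33% and 3.45% of all genes were. The summed level of the list was 273 to 307 TPM in RD WT, 226 to 245 TPM in RD LFKO, 336 to 395 TPM in RD LPKO and 299 to 359 TPM in RD LFPKO livers, so in LPKO livers the sum lay above WT while 10 of the 11 tested genes had negative values. Cd207 (langerin) fell in all 3, by 1.18 in LFKO, 0.84 in LPKO and 1.09 in LFPKO on the log2 scale (limma adjusted p = 0.00857, 0.0352 and 0.00502). Its RD LPKO and RD WT libraries overlapped. C6, a complement gene, fell in LFKO (-1.91), and Mertk, a receptor for dying cells, fell in LPKO (-0.79) and LFPKO (-0.87). C6 was also lower in HFD LFKO than in HFD WT livers (-1.74). It was called higher in LFPKO than in LFKO livers on the regular (2.51) and the high-fat diet (1.96). Cd207 also fell with the high-fat diet in WT livers (-1.41 ± 0.23, limma adjusted p = 4.98e-04). Of 37 further myeloid genes 26 were tested. On the regular diet 1 was called in LPKO and 1 in LFPKO livers, in both cases Tlr2, a receptor for bacterial lipoproteins, which rose (1.61 and 1.86). It fell with the high-fat diet in LPKO (-1.54) and LFPKO livers (-1.23). In HFD against RD WT livers 5 of the 26 were called lower, where 29.8% of all genes were, among them Lcp1 (-0.66), an actin-bundling protein of blood cells, and Grn (-0.69), the lysosomal protein progranulin. Both also fell with the diet in LPKO (-0.44 and -0.51) and LFPKO livers (-0.45 and -0.71), and both rose in HFD LFKO against HFD WT livers (0.44 and 0.65).

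Of 11 further iron and haem genes all were tested, and with the high-fat diet 4 fell in WT, 3 in LFKO, 4 in LPKO and 7 in LFPKO livers. Of all genes 29.8%, 8.34%, 17.3% and 24.9% were called lower in these comparisons, so the share in WT was near that of all genes. Ftl1, the ferritin light chain, fell in WT by 1.01, in LFKO by 1.08, in LPKO by 1.02 and in LFPKO by 1.15 on the log2 scale. Slc48a1, a haem transporter, fell by 0.82 in WT, 0.59 in LFKO, 0.63 in LPKO and 0.66 in LFPKO livers. These genes are expressed by hepatocytes too, and Hmox1 and Slc40a1 moved beside them. The haem-binding plasma protein gene Hpx, made by hepatocytes, rose in RD LPKO (0.96) and RD LFPKO livers (1.01).

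Markers of other cells moved in part with the members, and their part in the results was not tested. In HFD against RD WT livers 8 of 11 stellate cell and fibroblast genes were called lower, beside 29.8% of all genes, and their summed level went from a range of 132 to 202 TPM to one of 57.5 to 82.2 TPM. Of 12 sinusoidal endothelial genes 1 was lower in the same comparison (summed range 79.2 to 107 TPM in RD WT and 54.4 to 81.2 TPM in HFD WT). Of 14 hepatocyte genes 8 were lower there. In HFD LFKO against HFD WT livers 4 stellate cell genes were called higher, beside 12.7% of all genes. In RD LFKO, LPKO and LFPKO against WT livers 0, 0 and 1 endothelial genes were called with limma (2, 1 and 2 were lower at an unadjusted p under 0.05). The stellate cell genes gave 0, 0 and 0 calls with limma there (1, 1 and 2 lower at an unadjusted p under 0.05). Of all genes 4.89%, 6.7% and 9.89% were lower at that unadjusted threshold. None of 12 T and NK cell genes and none of 8 dendritic cell genes reached a mean of 1 TPM. Their summed ranges were 2.11 to 8.19 TPM and 1.61 to 3.83 TPM over all libraries. In RD LPKO livers the T and NK cell sum was 2.11 to 2.79 TPM, entirely under the 3.46 to 8.19 TPM of RD WT livers. The endothelial (68.1 to 90.0 TPM in RD LPKO), stellate cell (115 to 136 TPM) and red blood cell sums (469 to 581 TPM) had lower means than in RD WT livers and overlapped them. These sums were not tested. Red blood cell genes summed to between 262 and 1132 TPM.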

How the data were processed

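RNA-seq of polyadenylated RNA (TruSeq Stranded mRNA, Trizol extraction, per the labels' protocols) was quantified in 24 mouse liver libraries. The authors deposited TPM per gene, made with kallisto and listing mm10 and GRCm38, per the submitters' processing notes. The version of kallisto and the annotation it used: not given in the sources used here. One line without a gene name, 0.0104% to 0.0250% of each library, was removed.

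Genes with a mean of at least 1 TPM were tested on log2(TPM + 1) with limma 3.58.1 (limma-trend, R 4.3.3). One model of 8 group means over all 24 libraries gave 16 residual degrees of freedom. P-values are two-sided and were adjusted by Benjamini-Hochberg within each comparison, and calls were made at 0.05. The fit was tested on simulated data. The alternatives tried changed the pseudocount to 0.1, dropped the filter or raised it to 5 TPM, or used median-of-ratios scaling, removal of Mup and mitochondrial transcripts, the replicate number as a block, the compared groups alone, and each library left out.

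The members and gene lists were chosen with earlier results of these data known. Every member could be named. From each further list up to 4 genes with the smallest adjusted p among those called were eligible, with any against the direction of the list, besides Foxo1 and Ppara as label checks. Promoters came from a RefSeq table (GRCm38.p6, 24 of 35 members matched by symbol). Gene positions came from GENCODE M21 on GRCm38, which may differ from the authors' annotation. Figures were drawn with Python 3.11.15 and matplotlib 3.10.9.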

Additional observations from a re-analysis of the deposited data

How the results depend on the processing

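The members vary within groups by more than most genes, TPM carries no depth, and single libraries set many values, so counts of called members are small and unstable. With a pseudocount of 0.1 or no filter the count of called members went from 1 to 0 in RD LFKO, RD LPKO and RD LFPKO livers against WT, as it did at a minimum of 5 TPM, where 21 members were tested and Marco and Cd163 were not. With no filter it was also 0 for HFD LFPKO against LFKO, 3 for HFD against RD WT and 1 for HFD against RD LPKO. With median-of-ratios scaling it was 2 for RD LPKO against WT, 0 for HFD LFKO against WT, 0 for HFD LFPKO against LFKO, 1 for the diet in WT and 1 for the diet in LPKO livers. Without Mup and mitochondrial transcripts it was 0 for RD LFPKO against WT, 0 for HFD LFKO against WT, 0 for HFD LFPKO against LFKO, 1 for the diet in WT and 1 for the diet in LPKO livers. With the compared groups alone it was 2, 5 and 2 for RD LFKO, LPKO and LFPKO against WT, 1 for RD LFPKO against LFKO, 1 for HFD LFKO against WT, 0 for HFD LFPKO against LFKO and 4 for the diet in WT livers. The cause of these moves was not tested.

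Replicate numbers are shared between groups, but in 0 of 14 comparisons did every same-numbered pair of libraries correlate above 0.1 (the lowest was -0.230). The main fit used no pairing. This check cannot exclude a pairing in single comparisons, as the correlations were 0.319, 0.0932 and 0.387 between HFD LFPKO and HFD LFKO libraries. With the replicate number as a block the count was 2 for RD LFPKO against WT, 1 for HFD LFPKO against WT, 0 for HFD LFPKO against LFKO, 11 for the diet in WT and 1 for the diet in LPKO livers.

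With each library left out in turn the count ranged from 0 to 1 for RD LFKO, LPKO and LFPKO against WT, from 0 to 2 for HFD LFKO against WT, from 0 to 1 for HFD LFPKO against WT (1 without HFD LFPKO replicate 3) and from 0 to 1 for HFD LFPKO against LFKO. It ranged from 1 to 21 for the diet in WT, from 0 to 2 for the diet in LFKO (2 without HFD LFKO replicate 3) and was 1 for the diet in LPKO livers each time. The count for the diet in LFPKO livers stayed within 1.5 times its main value in the alternatives run. The comparisons HFD LPKO against WT, RD LFPKO against LPKO, HFD LFPKO against LPKO and the 3 interactions gave 0 calls in each alternative run.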
